A study of Mus musculus with 6 samples.

Results

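The 8 genes described here encode TXNIP and 4 further alpha-arrestins (Txnip, Arrdc1, Arrdc2, Arrdc3 and Arrdc4) and the 3 transcription factors that relay glucose to genes of this kind (Mlxipl, Mlxip and Mlx). They were taken by name, as the rows of the count table whose Ensembl ID carries one of these mouse symbols, and make up 8 of its 56980 gene IDs. All 8 passed the filter on low counts and were among the 18558 genes tested. The libraries held RNA of whole pancreatic islets from mice 14 weeks old. The 3 knockout libraries were labelled SSBP3F/F; MIP-CreER, so these mice carried floxed alleles of Ssbp3, which encodes a partner protein of the LIM-domain cofactor LDB1, together with a Cre recombinase under the mouse insulin promoter that acts when its receptor part is bound by ligand. The 3 control libraries came from littermates labelled SSBP3F/F, which carried the floxed alleles without Cre. Libraries with Cre and intact Ssbp3 were not analysed here, so the transgene and the loss of Ssbp3 differ together between the groups and cannot be told apart. Whether single mice or pools gave the RNA of a library cannot be read from the labels; p-values therefore rest on how far these 6 libraries spread, and that spread may be technical in part.

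TXNIP binds and inhibits thioredoxin and, like other alpha-arrestins, brings membrane proteins to ubiquitin ligases of the NEDD4 family; it lowers glucose uptake by acting on glucose transporters, and in beta cells high TXNIP is known to favour cell death. Its gene is among the most glucose-responsive genes of islets. Glucose metabolites activate ChREBP, encoded by Mlxipl, and its relative MondoA, encoded by Mlxip, and each of them binds DNA as a dimer with MLX, at paired E-box-like sequences named carbohydrate response elements (ChoRE). Arrdc4 is the other alpha-arrestin gene known to be driven in this way.

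Of these 8 genes, Txnip and Arrdc4 were higher in knockout islets, 2.99-fold and 2.51-fold, and the other 6 were not called. Called means a Benjamini-Hochberg adjusted p under 0.05 over all genes tested, by edgeR's quasi-likelihood test. Of all genes tested, 7.07% were called, 3.72% higher and 3.35% lower, and 1.27% were called with a change over 2-fold upward, beside 2 of the 8 here. The 8 genes were chosen with earlier results of these data known, so these shares are a description. Mlxipl and Mlxip had fold changes of 1.26 and 1.31, and Mlx, Arrdc3, Arrdc1 and Arrdc2 of 0.779, 0.809, 0.963 and 0.996, in knockout over control. The groups did not overlap for 5 of the 8 genes, Txnip, Arrdc4, Mlxip, Mlx and Arrdc3, beside 28.0% of all genes tested. For Arrdc3 this was all but a tie, with knockout 3 and control 1 both at 24.0 CPM after rounding.

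The start regions of Txnip, Arrdc4, Mlxipl and Mlx are shown first. Dimers of MLX with ChREBP or MondoA are known to bind E-box-like letters near such starts. The windows hold the 250 bases before a gene's start and the first 50 bases from it, as RefSeq places them in GRCm38.p6, a build other than the one the reads were aligned to. Capitals mark CACGTG, the E-box that reads alike on both strands, and CACGAG, a variant of it. Each of the windows shown here holds a marked string, and windows that hold neither are not shown.
Txnip, chr3:96557707-96558006, plus strand: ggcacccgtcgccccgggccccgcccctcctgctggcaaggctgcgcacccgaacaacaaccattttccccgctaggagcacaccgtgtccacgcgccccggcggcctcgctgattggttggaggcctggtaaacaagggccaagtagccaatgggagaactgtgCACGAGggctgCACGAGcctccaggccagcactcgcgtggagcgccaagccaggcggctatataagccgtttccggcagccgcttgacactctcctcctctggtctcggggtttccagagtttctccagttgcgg
Arrdc4, chr7:68749189-68749488, minus strand: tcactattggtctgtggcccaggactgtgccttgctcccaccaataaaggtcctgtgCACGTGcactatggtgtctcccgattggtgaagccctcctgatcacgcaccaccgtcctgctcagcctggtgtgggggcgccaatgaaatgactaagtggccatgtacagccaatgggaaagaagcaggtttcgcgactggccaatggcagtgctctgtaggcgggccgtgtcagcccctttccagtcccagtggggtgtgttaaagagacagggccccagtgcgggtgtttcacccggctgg
Mlxipl, upstream start, chr5:135089640-135089939, plus strand: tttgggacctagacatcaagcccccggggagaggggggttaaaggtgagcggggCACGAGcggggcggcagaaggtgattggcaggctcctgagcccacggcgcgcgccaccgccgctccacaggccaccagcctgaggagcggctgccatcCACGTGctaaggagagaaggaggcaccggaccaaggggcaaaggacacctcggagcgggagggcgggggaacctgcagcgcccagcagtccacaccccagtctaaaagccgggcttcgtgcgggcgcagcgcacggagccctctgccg
Mlx, chr11:101087040-101087339, plus strand: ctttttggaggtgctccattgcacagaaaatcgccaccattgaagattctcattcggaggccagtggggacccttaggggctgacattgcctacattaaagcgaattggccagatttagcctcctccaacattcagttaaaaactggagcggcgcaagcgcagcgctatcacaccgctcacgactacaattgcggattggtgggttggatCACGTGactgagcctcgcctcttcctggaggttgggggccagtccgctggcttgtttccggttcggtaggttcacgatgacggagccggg
The Txnip window held CACGAG at 85 and again at 74 bases before the start, with 5 bases between the copies. The Arrdc4 window held CACGTG at 193 bases, the upstream Mlxipl window CACGTG at 98 and CACGAG at 196 bases, and the Mlx window CACGTG at 40 bases before the start.

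All 8 genes had at least 1 window, 11 windows in all, and 5 strings were searched on both strands after the sequences had been seen. CACGTG was found in 7.15% and CACGAG in 6.47% of the 32851 windows of all genes. 2 copies of CACGNG, with 5 bases between them, were found in 16 of all windows, 0.0487%, and among the 11 in that of Txnip alone; its copies of CACGAG are part of this pair. A loose form of the ChoRE consensus, CANGNG followed after 5 bases by CNCNTG, was found in 0.557% of all windows and in 0 of the 11. The Txnip pair departs from this form only at the T of the second arm, where it holds A. The search for this form therefore does not show that a ChoRE is absent from the Txnip window. CCAAT, the site of the factor NF-Y, was found in 37.4% of all windows, at 6 places in that of Arrdc4, 3 in that of Arrdc2, 2 each in those of Txnip, Mlxip and Mlx, and 1 in the upstream window of Mlxipl. In Arrdc3 it was found at 1 place, which lies in 2 windows that overlap. CACGAG was also found in the windows of Arrdc1, at 158 and 118 bases, and of Arrdc2, at 77 bases before the start. The windows of Arrdc3 and Mlxip and the downstream window of Mlxipl held neither E-box string. A match describes letters and not binding. Mlxipl has 2 starts 17001 bases apart, and the upstream one, which holds the E-box, is known as the start of the short and highly active isoform ChREBP-beta. The counts are per gene and do not separate the isoforms.

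Library totals ran from 14907641 to 93841878 counts in the knockout group and from 17587055 to 225428920 in the control group, and knockout 1 and control 1 were the shallow ones. The 8 genes had between 92 and 31944 counts in a library, so even the lowest was far above a floor of 3 counts, which corresponds to 0.201 CPM in the shallowest library. Values below are CPM (counts scaled to library sizes corrected by TMM). Ssbp3 itself measured 52.3, 58.1 and 57.1 CPM in knockout 1, 2 and 3, against 65.8, 81.3 and 74.2 CPM in control 1, 2 and 3, a log2 fold change of -0.40 that edgeR did not call (adjusted p = 0.0581); 6 of 17 alternatives called it lower, limma-voom among them, and the adjusted p ran from 0.0166 to 0.283. Which exons were floxed could not be read from the labels, and counts over the whole gene check the labels only in part. All 8 beta-cell markers were detected in every group, and their summed level was 141625 to 159295 CPM in knockout and 188583 to 243679 CPM in control libraries, with 3 of the 8 called lower and 0 higher.

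**Figure D1:**
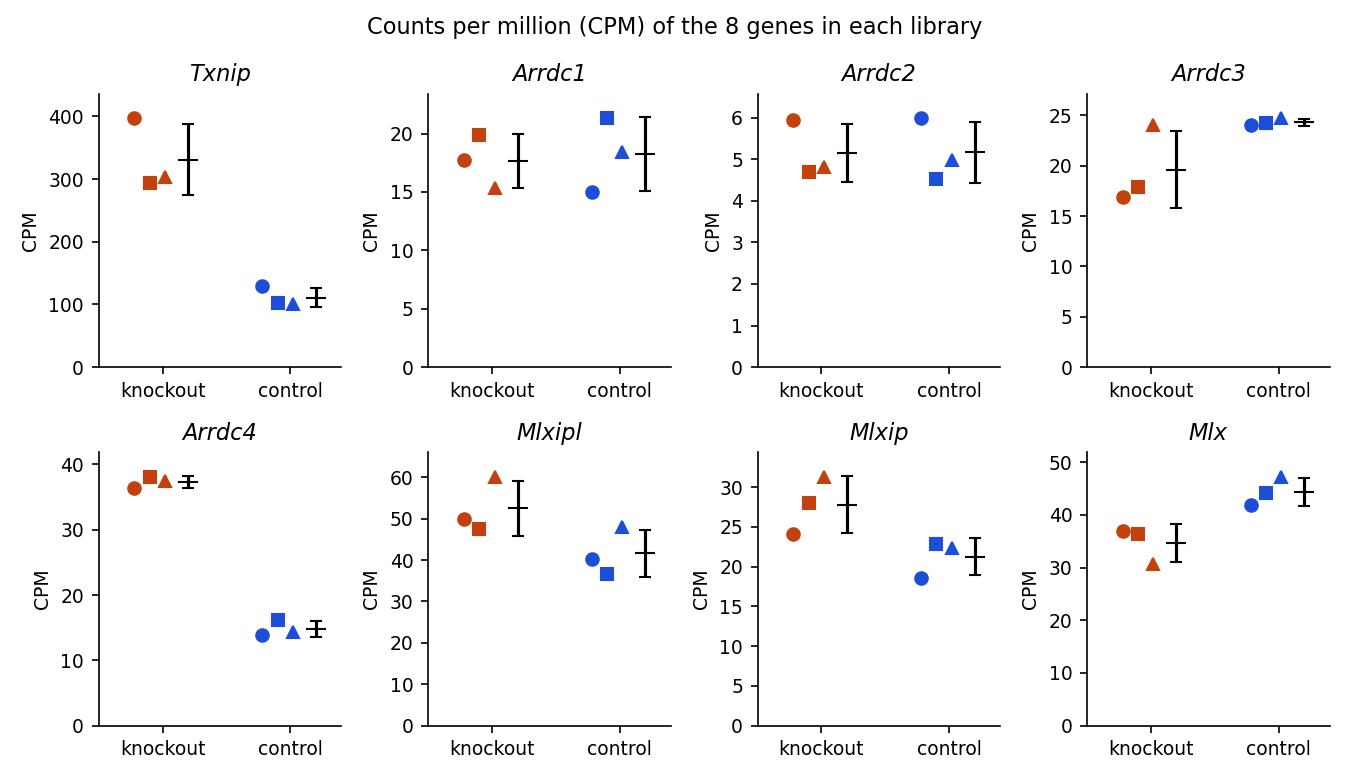
CPM (vertical axes, each from 0) of the 8 genes in 3 knockout (left) and 3 control (right) libraries; circle, square and triangle are libraries 1, 2 and 3 of a group, and the bar gives the mean and SD. Txnip and Arrdc4 sit at 294 to 397 and 36.4 to 38.1 CPM in knockout libraries, above every control library, while Arrdc1 and Arrdc2 overlap.

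Txnip (ENSMUSG00000038393) measured 397, 294 and 303 CPM in knockout 1, 2 and 3, against 129, 103 and 101 CPM in control 1, 2 and 3. The lowest knockout library was more than 100 CPM above the highest control library, and library 1 was the highest of its group in both groups. The means were 331 ± 57.3 CPM in knockout and 111 ± 16.0 CPM in control islets (SD, n = 3 each), and on the log2 scale knockout was higher by 1.58 (SE 0.150; adjusted p = 0.000105 by edgeR). The 95% interval of the fold change was 2.38 to 3.74. By p Txnip ranked 24th of the 18558 genes tested, and 1.95% of them had a larger log2 fold change. In bulk islets, a change in the share of cells that express a gene and a change in its RNA per cell cannot be told apart.

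Txnip is overlapped on the other strand by the noncoding gene Gm15441, whose span in GENCODE M21 contains it. The labels do not state if counting used strand, and without strand reads of both genes cannot be told apart. Gm15441 held 20, 112 and 122 counts in knockout and 22, 18 and 105 counts in control libraries 1, 2 and 3, or at most 0.959% of the Txnip counts of the same library. It was not called (log2 fold change 1.11, SE 0.609, edgeR adjusted p = 0.321; limma-voom 0.0481).

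Arrdc4 (ENSMUSG00000042659), an alpha-arrestin that like TXNIP is known to lower glucose uptake, measured 36.4, 38.1 and 37.5 CPM in knockout 1, 2 and 3, against 13.9, 16.2 and 14.3 CPM in control 1, 2 and 3. Each group kept within a narrow range, and the groups lay far apart. The means were 37.3 ± 0.830 CPM in knockout and 14.8 ± 1.22 CPM in control islets (SD, n = 3 each), and on the log2 scale knockout was higher by 1.33 (SE 0.130; adjusted p = 0.000127 by edgeR), with a 95% interval of the fold change of 2.07 to 3.06. It ranked 27th by p among the genes tested. The ratio of Txnip to Arrdc4 counts within a library, which does not depend on how libraries are scaled, was 10.9, 7.72 and 8.08 in knockout and 9.28, 6.33 and 7.06 in control libraries. These ratios overlapped between the groups (log2 difference 0.24, exact permutation test, two-sided, p = 0.4, adjusted p = 0.45 over the 9 ratios computed).

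The other alpha-arrestins were not called. Arrdc3 (ENSMUSG00000074794), which is known to bring beta-adrenergic receptors to degradation and to restrain energy expenditure in mice, measured 16.9, 17.9 and 24.0 CPM in knockout 1, 2 and 3, against 24.0, 24.2 and 24.7 CPM in control 1, 2 and 3. Knockout 3 stood at the control level and the other knockout libraries below it. The log2 fold change was -0.31 (SE 0.156, edgeR adjusted p = 0.283; 95% interval -0.64 to 0.03). Without knockout 3 it was -0.48 (adjusted p = 0.0774), more than 1.5 times as large on the log2 scale and still not called. An antisense noncoding gene inside Arrdc3, 1700023H06Rik, had 27 counts or fewer in a library, with 0 in the 3 knockout libraries.

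Arrdc1 (ENSMUSG00000026972), which drives the budding of small vesicles from the plasma membrane, measured 17.7, 19.9 and 15.3 CPM in knockout 1, 2 and 3, against 15.0, 21.3 and 18.4 CPM in control 1, 2 and 3. Arrdc2 (ENSMUSG00000002910), the least studied of these alpha-arrestins, measured 5.95, 4.69 and 4.80 CPM in knockout, against 5.98, 4.53 and 4.97 CPM in control libraries. In both genes the groups covered the same range. The 95% interval of the fold change was 0.746 to 1.24 for Arrdc1 and 0.703 to 1.41 for Arrdc2 (edgeR adjusted p = 0.893 and 0.992), so changes of the size seen in Txnip and Arrdc4 lie outside both intervals, while changes up to 1.24-fold and 1.41-fold lie within them. The log2 fold changes were -0.05 for Arrdc1, whose sign turned with transcript length as an offset and without control 2 or knockout 3, and -0.01 for Arrdc2, whose sign turned under several scalings and left-out libraries. Txnip counts were 23.5, 16.4 and 12.6 times those of Arrdc3 in knockout libraries, against 5.38, 4.23 and 4.08 times in control libraries. That ratio separated the groups without overlap at p = 0.1, the smallest p that 3 against 3 libraries allow in an exact permutation test (two-sided; adjusted p = 0.15 over 9 ratios).

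None of the 3 transcription factor genes was called with the edgeR design used throughout, or by DESeq2 or limma-voom, and each had an unadjusted p under 0.05 by edgeR (0.0305 for Mlxipl, 0.0214 for Mlxip and 0.0129 for Mlx). By edgeR 21.6% of all genes tested had an unadjusted p under 0.05. Mlxipl (ENSMUSG00000005373), which encodes ChREBP, measured 50.0, 47.6 and 60.1 CPM in knockout 1, 2 and 3, against 40.2, 36.7 and 47.9 CPM in control 1, 2 and 3. Library 3 was the highest in each group, and control 3 lay just above knockout 2. The means were 52.6 ± 6.61 CPM in knockout and 41.6 ± 5.73 CPM in control islets (SD, n = 3 each; log2 fold change 0.34, SE 0.138, edgeR adjusted p = 0.176). The 95% interval of its fold change, not adjusted for the number of genes, was 1.03 to 1.55.

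Mlxip (ENSMUSG00000038342), which encodes MondoA, measured 24.1, 28.0 and 31.3 CPM in knockout 1, 2 and 3, against 18.6, 22.9 and 22.3 CPM in control 1, 2 and 3. The lowest knockout library lay just above the highest control library. The log2 fold change was 0.39 (SE 0.147, edgeR adjusted p = 0.142). Mlx (ENSMUSG00000017801), the partner of both factors, measured 37.0, 36.4 and 30.6 CPM in knockout 1, 2 and 3, against 41.9, 44.1 and 47.2 CPM in control 1, 2 and 3. The highest knockout library lay below the lowest control library, and the log2 fold change was -0.36 (SE 0.124; adjusted p = 0.104 by edgeR). The end of Mlx overlaps that of Psmc3ip on the other strand, which held 1.98% to 4.12% of the Mlx counts of the same library and was not called.

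Set against the counts of their partner, both glucose sensors had higher values in each knockout library than in any control library. Mlxipl counts were 1.35, 1.31 and 1.96 times those of Mlx in knockout libraries, against 0.960, 0.833 and 1.02 times in control libraries. Mlxip counts were 0.650, 0.769 and 1.02 times those of Mlx in knockout libraries, against 0.445, 0.518 and 0.473 times in control libraries. The differences came to 1.62-fold and 1.67-fold, each at the smallest possible p of 0.1 (exact permutation test, two-sided; adjusted p = 0.15). Over all genes the log2 fold change rose with exon length (Spearman rho 0.212, a description across genes), and Mlx, with 1999 bases of exon, is shorter than Mlxipl with 5538 and Mlxip with 8326. With transcript length as an offset the log2 fold changes were 0.27 for Mlxipl, 0.27 for Mlxip and -0.25 for Mlx. Mlxipl and Mlxip kept within the same range relative to each other, 2.08, 1.70 and 1.92 in knockout and 2.16, 1.61 and 2.15 in control libraries (exact permutation p = 0.8, adjusted p = 0.8).

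Counts per gene grow with its length, so levels of different genes were compared as CPM per kilobase of exon, with exon lengths from GENCODE M21. In knockout islets Txnip stood first at 106 ± 18.3 CPM per kilobase, followed by Mlx at 17.3 ± 1.77, Mlxipl at 9.49 ± 1.19, Arrdc4 at 9.24 ± 0.206, Arrdc1 at 7.02 ± 0.903, Mlxip at 3.34 ± 0.436, Arrdc3 at 3.13 ± 0.615 and Arrdc2 at 1.59 ± 0.216 (SD, n = 3). In control islets the order was Txnip at 35.5 ± 5.13, Mlx at 22.2 ± 1.33, Mlxipl at 7.52 ± 1.03, Arrdc1 at 7.26 ± 1.25, Arrdc3 at 3.88 ± 0.0545, Arrdc4 at 3.67 ± 0.301, Mlxip at 2.55 ± 0.276 and Arrdc2 at 1.60 ± 0.231 CPM per kilobase (SD, n = 3). Neighbours whose libraries overlapped were Mlxipl with Arrdc4 and Mlxip with Arrdc3 in knockout islets, and Mlxipl with Arrdc1 and Arrdc3 with Arrdc4 in control islets. Arrdc4 thus held rank 4 in knockout and rank 6 in control islets, and Txnip was 6.11 times the next gene in knockout and 1.60 times the next gene in control islets. Of the summed level per kilobase of the 5 alpha-arrestins, Txnip made up 86.1%, 81.3% and 82.4% in knockout 1, 2 and 3, against 73.3%, 64.9% and 66.4% in control 1, 2 and 3.

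**Figure D2:**
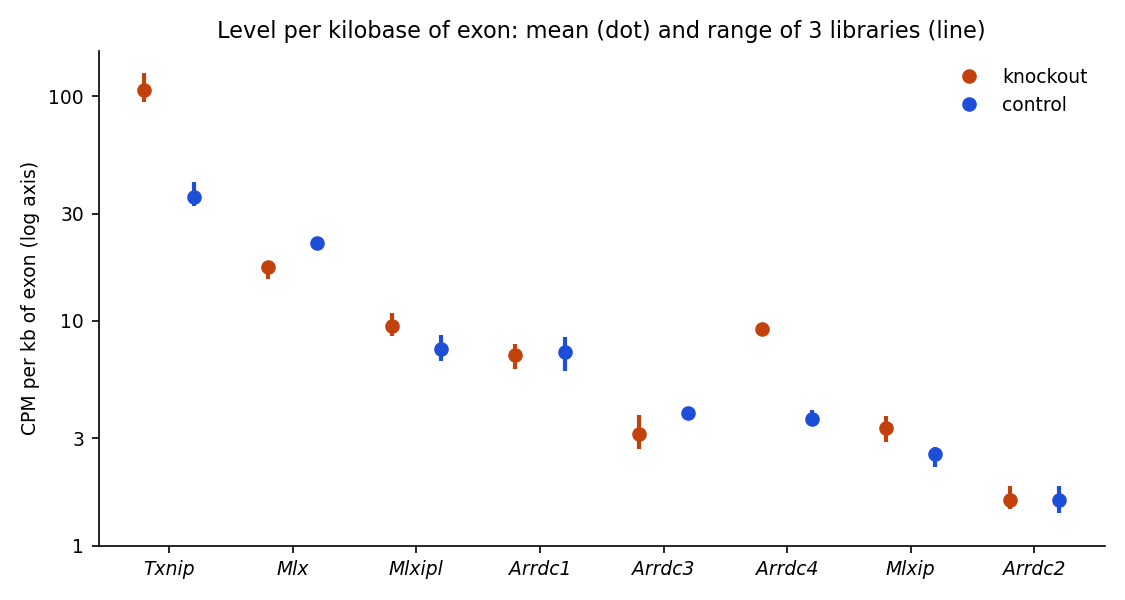
CPM per kilobase of exon (vertical log axis) of the 8 genes in knockout (orange, left of each pair) and control (blue, right) islets; dots are means and lines the range of 3 libraries. Txnip is highest in both groups, at 106 in knockout and 35.5 in control islets, and Arrdc4 lies level with Mlxipl in knockout islets at 9.24 against 9.49.

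Beta cells hold much of the RNA of an islet, so the genes were also set against Ins2, an insulin gene that itself measured 95668, 87076 and 101321 CPM in knockout 1, 2 and 3, against 115623, 134589 and 157818 CPM in control 1, 2 and 3 (log2 fold change -0.52, edgeR adjusted p = 0.234). The groups did not overlap for Ins2, and DESeq2 and limma-voom called it lower, so a ratio to Ins2 carries that difference too. For 1000 counts of Ins2 there were 4.15, 3.37 and 2.99 counts of Txnip in knockout 1, 2 and 3, against 1.12, 0.762 and 0.639 in control 1, 2 and 3. For Arrdc4 the values were 0.381, 0.437 and 0.370 in knockout libraries, against 0.121, 0.120 and 0.0906 in control libraries. For Mlxipl they were 0.523, 0.547 and 0.593 in knockout libraries, against 0.348, 0.273 and 0.304 in control libraries. These 3 genes separated the groups on this scale, by 4.25-fold, 3.60-fold and 1.80-fold, each at the smallest possible exact permutation p of 0.1 (adjusted p = 0.15). Mlx did not, with 0.387, 0.418 and 0.302 counts in knockout and 0.362, 0.328 and 0.299 counts in control libraries (exact permutation p = 0.4, adjusted p = 0.45).

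Among markers of other cells, acinar genes summed to 43489, 89147 and 26073 CPM in knockout 1, 2 and 3, against 43332, 67810 and 33892 CPM in control 1, 2 and 3, and these ranges overlapped. Library 2 was the highest of each group in these sums, as it was for Arrdc4 and not for Txnip. With the acinar share as a covariate the log2 fold changes were 1.60 for Txnip and 1.32 for Arrdc4. Alpha-cell markers summed to 18786 to 23017 CPM in knockout and 21062 to 32417 CPM in control libraries. Endothelial markers summed to 203 to 262 CPM in knockout and 176 to 199 CPM in control libraries, with 1 of 6 called, higher. Markers of delta, PP and epsilon cells summed to 6454 to 8665 CPM in knockout and 8675 to 14171 CPM in control libraries, with 3 of 6 called lower. Duct markers summed to 1242 to 1705 CPM in knockout and 1926 to 2452 CPM in control libraries, with 1 of 7 called, higher. Most of that difference in the sum was Spp1, at a mean of 635 CPM in knockout and 1344 CPM in control islets, and 5 of the 7 duct markers had a positive log2 fold change. Stromal markers, at 79.3 to 125 CPM in knockout and 84.2 to 174 CPM in control libraries, and immune markers, at 25.4 to 60.3 CPM in knockout and 29.6 to 50.5 CPM in control libraries, overlapped. The T-cell gene Cd3e had 0 counts in the 3 knockout libraries and 0, 2 and 2 counts in control 1, 2 and 3. These counts of called markers stand beside 7.07% called of all genes tested. With 1 library left out they ran from 0 to 4 for delta, PP and epsilon cells, 0 to 2 for endothelial cells, 0 to 1 for duct cells and 1 to 3 for beta cells. Without knockout 1 the duct marker called was another gene, Spp1, and it was lower. Apart from the acinar share, the part of these shifts in the changes of Txnip and Arrdc4, and in those of the gene lists that follow, was not tested.

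Other genes known to be induced by glucose through ChREBP or MondoA were read from a list of 20, of which 19 were tested. Of these 5 were called higher, 0 lower and 14 not, and the median log2 fold change was 0.35, beside a median of 0.00 and 7.07% called over all genes tested. The list was chosen with earlier results of these data known, so these counts are a description. Without knockout 3 the number called was 3. Klf10, a zinc-finger repressor, rose to 43.3 ± 1.45 CPM in knockout islets, against 19.1 ± 0.872 CPM in control islets (log2 fold change 1.19, edgeR adjusted p = 0.000164). Rgs16, which shortens G-protein signals, rose to 43.8 ± 8.55 CPM, against 20.7 ± 2.92 CPM in control islets (log2 fold change 1.08, edgeR adjusted p = 0.00205; SD, n = 3 each).

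Pklr, which encodes the liver-type pyruvate kinase and is the textbook ChREBP target, measured 25.2, 17.4 and 21.4 CPM in knockout 1, 2 and 3, against 2.99, 8.24 and 7.48 CPM in control 1, 2 and 3. On the log2 scale it was higher by 1.72 (SE 0.315; adjusted p = 0.0124 by edgeR), and without knockout 3 the adjusted p was 0.0656. A window before a Pklr start held the loose form of the ChoRE consensus, shown with its arms in capitals for comparison with the Txnip window.
Pklr, GRCm38.p6, chr3:89136447-89136475, plus strand: ggacgcCACGGGgcactCCCGTGgttcct

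The lipid synthesis genes of the list were not called by edgeR, while DESeq2 called Acly and Acaca higher, among 2015 genes it called in all. These genes were chosen after their values were seen. On the log2 scale the difference was 0.35 for Fasn, fatty acid synthase, 0.53 for Acaca, acetyl-CoA carboxylase, and 0.51 for Acly, ATP-citrate lyase (adjusted p = 0.109, 0.0774 and 0.113 by edgeR). In each of the 3 every knockout library was above every control library. The groups did not overlap, in either direction, for 10 of the 19 list genes and 28.0% of all genes tested. With transcript length as an offset the difference was 0.20 for Fasn and 0.34 for Acaca, and without knockout 3 it was 0.31 for Acly. Thrsp, a lipogenic regulator, was separated in the other direction, at 1.55, 1.15 and 1.35 CPM in knockout 1, 2 and 3, against 1.69, 2.54 and 2.43 CPM in control 1, 2 and 3. The log2 fold change was 0.01 for Me1, -0.27 for Scd1, -0.30 for Scd2 and -0.75 for Thrsp (edgeR adjusted p = 0.966, 0.562, 0.275 and 0.248). G6pc, the liver glucose-6-phosphatase gene, was too low to test, with 6, 0 and 4 counts in knockout and 0 counts in the control libraries.

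**Figure D3:**
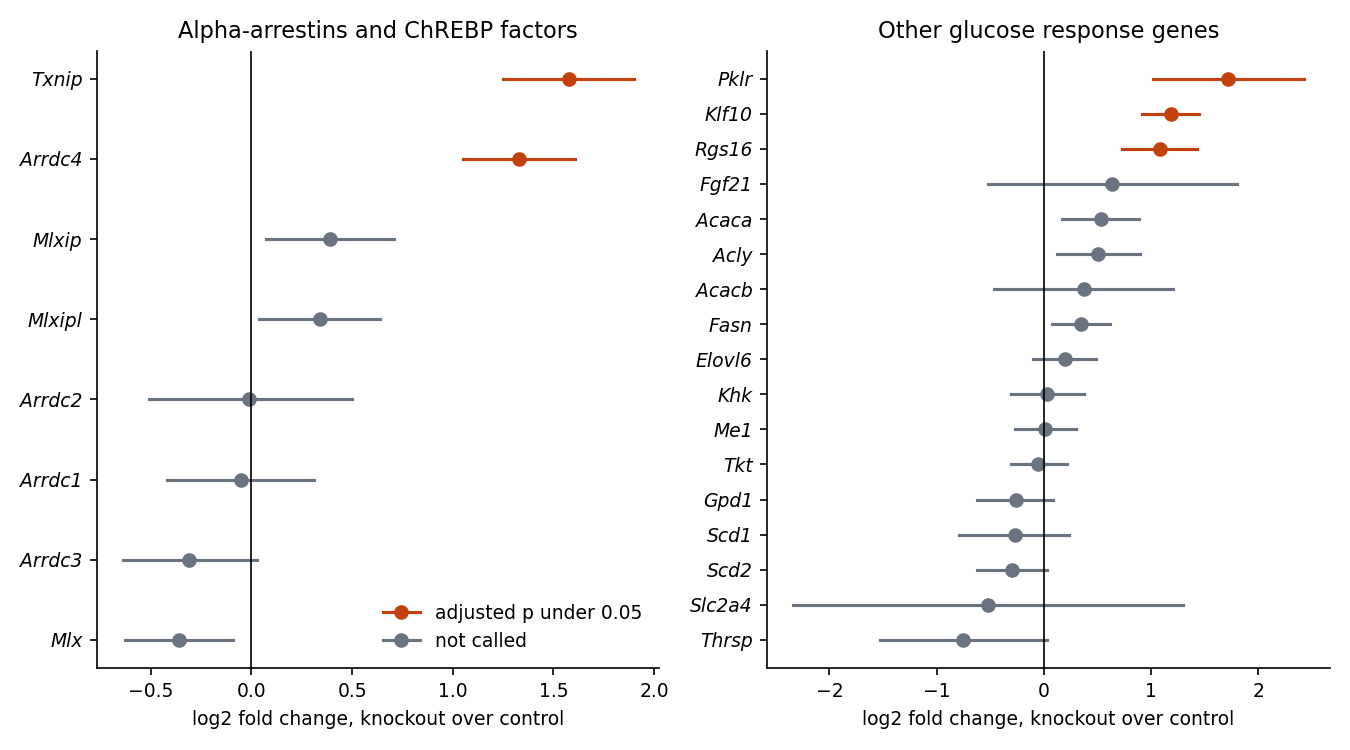
Log2 fold change of knockout over control (horizontal axes, which differ in range) with its 95% interval, for the 8 genes (left) and 17 of the 19 tested genes of the glucose response list (right); orange marks an edgeR adjusted p under 0.05. Txnip at 1.58 and Arrdc4 at 1.33 stand apart from the other 6 genes, and Pklr at 1.72 has the widest interval among the called genes shown.

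Genes whose proteins work with these factors and arrestins were read from further lists. Beside the list counts that follow, 21.6% of all genes tested had an unadjusted p under 0.05 by edgeR. Over the whole table edgeR called 1312 genes, DESeq2 2015 and limma-voom 1725. Of 10 genes of the MAX and MLX network tested, 0 were called by edgeR and 1 each by DESeq2 and limma-voom (median log2 fold change 0.32; 1 gene had an unadjusted p under 0.05). In each case that was Mnt, a repressor that dimerises with MAX and with MLX, at 29.8, 34.0 and 39.4 CPM in knockout 1, 2 and 3, against 19.3, 23.1 and 27.5 CPM in control 1, 2 and 3 (log2 difference 0.56, SE 0.159; adjusted p = 0.0532 by edgeR). Of 17 alternatives 9 called Mnt higher, edgeR with transcript length as an offset among them, and the adjusted p ran from 0.00623 to 0.188. Myc, with a log2 fold change of 0.43, Mycn, with 0.71, and Mycl, with 1.49, were not called (edgeR adjusted p = 0.346, 0.388 and 0.410).

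Of 14 genes of the thioredoxin system and the inflammasome, edgeR called 2 lower and 0 higher, beside 3.35% lower and 3.72% higher of all genes tested (median log2 fold change -0.04; 5 had an unadjusted p under 0.05). DESeq2 called 3 lower, Prdx2 besides the 2, and Txnrd1 higher, and limma-voom called the same 2 lower and Txnrd1 higher. Over the whole table DESeq2 called 1059 genes higher and 956 lower, and limma-voom 899 higher and 826 lower. Txn1, the cytosolic thioredoxin that TXNIP inhibits, measured 112, 112 and 69.2 CPM in knockout 1, 2 and 3, against 130, 122 and 90.5 CPM in control 1, 2 and 3, and was not called (log2 difference -0.23, adjusted p = 0.565 by edgeR). Its mitochondrial counterpart Txn2 fell to 58.0 ± 5.13 CPM in knockout islets, against 85.7 ± 15.9 CPM in control islets (log2 fold change -0.56, edgeR adjusted p = 0.0304), and the peroxiredoxin gene Prdx5 to 76.1 ± 5.45 CPM, against 104 ± 7.09 CPM in control islets (-0.45, 0.0289; SD, n = 3 each). For Txn2 the adjusted p was 0.180 without control 2, 0.124 without knockout 1 and 0.0517 without knockout 3. For Prdx5 it was 0.0649 without control 1, 0.164 without control 2, and 0.102, 0.0568 and 0.0695 with knockout 1, 2 or 3 left out in turn. The log2 difference was -0.44 for Prdx2 and 0.37 for Txnrd1, a thioredoxin reductase (adjusted p = 0.0591 and 0.0629 by edgeR). Nlrp3, the sensor of the inflammasome that TXNIP is reported to bind, stayed under 1 CPM in both groups.

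Of 10 NEDD4-family ligases and their adaptors, edgeR, DESeq2 and limma-voom each called 2 higher and 0 lower, beside 3.72% higher by edgeR of all genes tested (median log2 fold change 0.15; 4 had an unadjusted p under 0.05). With transcript length as an offset 0 of them were called. Nedd4l measured 45.6, 43.5 and 45.8 CPM in knockout 1, 2 and 3, against 29.5, 28.3 and 31.8 CPM in control 1, 2 and 3 (log2 fold change 0.59, edgeR adjusted p = 0.0104; 0.0657 without control 2, and 0.0520 with transcript length as an offset). Smurf2 was higher by 0.43 on the log2 scale (adjusted p = 0.0490 by edgeR), a call lost whichever single library was left out (0.0787 to 0.161), with transcript length as an offset (0.0578) and with upper-quartile factors (0.0698). The log2 difference was 0.17 for Itch, a ligase known to act on TXNIP, 0.37 for Nedd4 and 0.45 for Smurf1 (adjusted p = 0.562, 0.113 and 0.0849 by edgeR). Of 8 vesicle partners of ARRDC1 and membrane proteins that alpha-arrestins carry, 0 were called by edgeR, 2 by DESeq2 (Slc2a1 and Igf1r, lower) and 1 by limma-voom (Insr, higher), and 3 had an unadjusted p under 0.05. Of all genes tested, edgeR called 7.07%, and DESeq2 and limma-voom called more genes than edgeR. The glucose transporter gene Slc2a1 measured 37.0, 34.4 and 30.6 CPM in knockout 1, 2 and 3, against 35.5, 48.8 and 81.5 CPM in control 1, 2 and 3, with control 3 apart (log2 fold change -0.71, edgeR adjusted p = 0.187). Igf1r and Insr, receptors of insulin-like growth factor and insulin, had log2 fold changes of -0.74 and 0.47 (edgeR adjusted p = 0.173 and 0.182), and Tsg101, which ARRDC1 recruits for budding, of -0.16 (0.439).

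Of the other arrestins and arrestin-like genes, 4 of 7 were tested and 0 called by edgeR, DESeq2 or limma-voom, the beta-arrestins Arrb1 and Arrb2 with log2 fold changes of -0.36 and 0.03 (edgeR adjusted p = 0.481 and 0.938) and the retromer subunits Vps26a and Vps26b with 0.09 and 0.17 (0.693 and 0.483). None of these 4 had an unadjusted p under 0.05. The remaining alpha-arrestin gene, Arrdc5, measured 0, 0.0499 and 0 CPM in knockout libraries and 0 CPM in the control libraries. Arrdc2, Arrdc3 and Txnip are also known targets of glucocorticoids or FOXO factors. Of 10 genes of that response 0 were called by edgeR, DESeq2 or limma-voom, with 1 at an unadjusted p under 0.05, and the median log2 fold change was -0.06. The members with the smallest p were Ddit4 at -0.33, Fkbp5 at 0.33, Pdk4 at -0.30 and Irs2 at -0.39 (edgeR adjusted p = 0.171, 0.296, 0.377 and 0.415).

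The genes whose pattern over the 6 libraries was closest to that of Txnip were found among 10737 others with a mean of at least 5 CPM, by the root mean square difference of log2 CPM centred on each gene's mean. They were Selenop, the plasma selenium carrier, at 0.102, Mob3b at 0.103 and Socs2, a feedback inhibitor of cytokine receptors, at 0.126 on the log2 scale. Selenop measured 740, 652 and 629 CPM in knockout 1, 2 and 3, against 237, 221 and 206 CPM in control 1, 2 and 3. Library 1 was highest in both groups there, as in Txnip. Closest to Arrdc4 were Gprc5c, an orphan receptor gene, at 0.0945, Mturn at 0.0950 and Klf10 at 0.0987. Between Txnip and Arrdc4 the difference was 0.257. Mlxipl and Mlxip differed by 0.165, less than any other pair of the 8 genes. These distances share the libraries and the difference between the groups, and are given as a description.

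The calls of Txnip and Arrdc4 held under each of 17 alternatives, which varied the scaling, the filter, the test, transcript length, the acinar share, a block on column numbers and the libraries left out. The log2 fold change ran from 1.43 to 1.70 for Txnip (adjusted p = 6.53e-28 to 0.0122) and from 1.28 to 1.41 for Arrdc4 (4.75e-16 to 0.0248). The highest adjusted p of each came without both shallow libraries, where 124 genes were called in all.

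**Figure D4:**
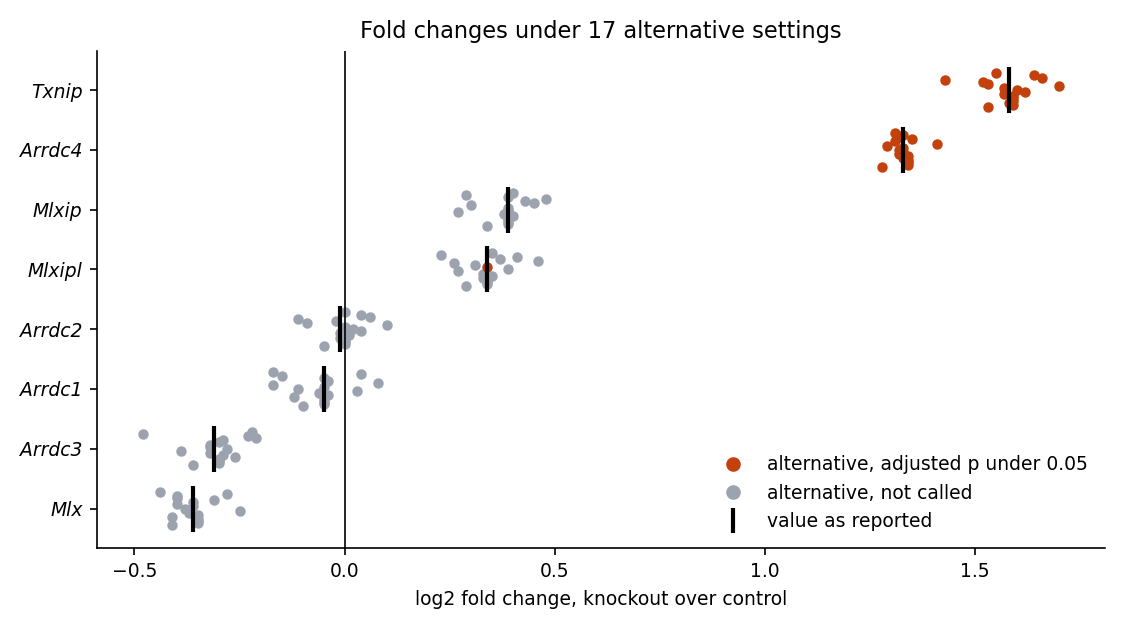
Log2 fold change of knockout over control (horizontal axis) of the 8 genes under 17 alternatives (dots, orange where the adjusted p was under 0.05) beside the value as reported (black bar). The dots of Txnip lie between 1.43 and 1.70 and those of Arrdc4 between 1.28 and 1.41; the dots of Arrdc1 and Arrdc2 lie on both sides of 0.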

How the data were processed

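The authors deposited a table of raw, unnormalized counts for 56980 Ensembl gene IDs in 6 libraries. STAR 2.7.3a, featureCounts, Trim Galore 0.6.7 and FastQC 0.11.9 are the tools listed with GRCm39 (mm39), per the submitters' processing notes; annotation, strand and read-pair settings: not given in the sources used here. Column names give the group but not the animal, so libraries are numbered as the columns are. Symbols were matched by gene ID for 52073 IDs. Genes were filtered by filterByExpr, scaled by TMM and tested with edgeR 4.0.16 in R 4.3.3 (quasi-likelihood, robust), with standard errors from the F statistic. The alternatives used DESeq2 1.42.0 and limma 3.58.1 too. The test was checked on simulated counts. Between 62.3% and 73.2% of nonzero counts were even, so a fragment may have been counted as 2 reads. Libraries of a group differed by more than counting noise in each pair (chi-square of at least 39.8 a gene).

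The members and lists were chosen with earlier results of these data known. All 8 members are named, with up to 4 genes of smallest p from each list, the 3 genes of closest pattern to Txnip and to Arrdc4, and Ssbp3; the remaining genes named (the lipid genes, G6pc, Txn1, Nlrp3, Itch, Arrdc5, antisense partners) and the motifs were chosen after values or sequences were seen. The list counts include 2 called genes of the glucose response list that are not reported here. Ratios within libraries were compared by exact permutation tests. Exon lengths come from GENCODE M21 (GRCm38), for 18113 of 18558 genes tested. Counting floors cover counting error only.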

Additional observations from a re-analysis of the deposited data

How the results depend on the processing

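Over 17 alternatives, all planned, Txnip and Arrdc4 kept their direction and their call, and Mlxipl, Mlxip, Mlx and Arrdc3 kept their direction. Log2 fold changes without 1 library each ran from 1.43 to 1.70 for Txnip, 1.29 to 1.41 for Arrdc4, 0.23 to 0.46 for Mlxipl, 0.29 to 0.48 for Mlxip, -0.40 to -0.28 for Mlx, -0.48 to -0.21 for Arrdc3, -0.17 to 0.08 for Arrdc1 and -0.11 to 0.10 for Arrdc2. The sign of Arrdc1 also turned with the transcript length offset (0.03). That of Arrdc2 turned with DESeq2 size factors in edgeR, library sizes without hormone and acinar genes and DESeq2 (0.00 each, above zero before rounding), no filter (0.01), the length offset (0.04) and the acinar covariate (0.02). No cause was tested. The median of all genes moved by at most 0.06 (-0.06 to 0.01).

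With the column number as a replicate block, Mlxipl was called (log2 fold change 0.34, adjusted p = 0.0451), 3 of the 8 genes were called, and counts of calls were 2105 in all and 16 on the lists, against 1312 and 9. Same-numbered libraries deviated together only weakly (correlations 0.0162, 0.0806 and 0.0659). Each library correlated best with its own number, a hint from the data and not the design. Whether the numbers pair the libraries cannot be read from the labels, and the call of Mlxipl depends on that block.

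DESeq2 called 2015 genes in all and 16 on the lists, no filter 2153 and 14, and the acinar covariate 15 on the lists. Without both shallow libraries 124 and 5 were called, with fewer samples. Leaving out 1 library gave 519 to 1309 and 4 to 10; the members called stayed at 2. Of the glucose response list 5 were called, 8 with the block and 3 without knockout 3. On the lists 4 were called without control 2 and 4 without knockout 3, and 661, 519 and 610 in all without control 1, control 2 and knockout 1. Depth limited none of the 8 genes to near the floor; 3 libraries a group limit what small changes can be called.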
